A study of Mus musculus with 12 samples.

Results

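The insulin-like growth factor (IGF) system was followed in immortalised mouse preadipocytes and in the adipocytes made from them, with the gene Acly intact or deleted. Its 10 members were taken by symbol from the deposited expression table: the ligands Igf1 and Igf2, the receptors Igf1r and Igf2r, and the binding proteins Igfbp2, Igfbp3, Igfbp4, Igfbp5, Igfbp6 and Igfbp7. All 10 were found among 24341 genes. RNA was sequenced in 12 libraries from 4 groups of 3, namely preadipocytes and adipocytes of the genotypes Aclyf/f and Acly-/-. In all groups the cells came from adipose tissue of C57Bl/6 mice and had been immortalised with SV40. In Aclyf/f cells Acly is floxed but intact, and in Acly-/- cells it is deleted. Acly encodes ATP citrate lyase, which makes acetyl-CoA from citrate in the cytosol. Preadipocytes were taken on day 0 and adipocytes on day 4 of a rosiglitazone-containing differentiation protocol. The labels tell neither how Acly was deleted nor if the replicates stem from different cultures or clones. The p-values thus measure only the spread between these libraries, which may be technical.

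IGF1 and IGF2 are secreted hormones that act through the receptor tyrosine kinase IGF1R. IGF2R, which also serves as a mannose 6-phosphate receptor, takes IGF2 into the cell for breakdown. The binding proteins hold the ligands outside cells and either keep them from the receptor or deliver them, and proteases set the ligands free again. In fat, IGF signalling is known for promoting the growth of preadipocytes and their differentiation.

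Levels are FPKM, which are fragment numbers set relative to transcript length and library depth, as the authors deposited them, with mean ± SD over n = 3 libraries, and values by library are in the order of replicates 1, 2 and 3. Genes reaching 1 FPKM in 3 or more libraries were tested with limma on log2(FPKM + 1), 11777 in number, and a gene was called at a Benjamini-Hochberg adjusted p under 0.05 over all of them. Of the 10 members, 8 were tested, and Igf1 and Igf2 were below the filter. Depth estimated from the steps of low values was about 6740000 to 13010000 fragments per library. Acly itself was 84.9 to 89.5 FPKM in Aclyf/f and 11.9 to 12.5 FPKM in Acly-/- preadipocytes, and 722 to 814 against at most 13.2 FPKM in adipocytes. In Acly-/- preadipocyte replicate 3 the 10 most abundant genes took 15.5% of the summed FPKM, against 6.21% to 9.07% in the other 11 libraries. The labelled cell types were checked against markers. Of 7 adipocyte markers, 6 reached a mean of 1 FPKM in adipocytes of each genotype, and leptin (Lep) lay on the table's lowest value in every library. In adipocytes without Acly, 5 of these 6 were called lower, by 1.45-fold (Fabp4), 1.77-fold (Cebpa), 1.99-fold (Plin1), 2.48-fold (Cidec) and 8.95-fold (Adipoq), and Pparg was not called (1.09-fold lower, adjusted p = 0.208). Of 6 preadipocyte markers, Pdgfra, Pdgfrb and Ly6a reached 1 FPKM in preadipocytes of each genotype, while Dlk1, Thy1 and Cd34 did not. These are bulk samples, in which fewer cells of a type and less RNA per cell cannot be told apart.

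By FPKM, which is set relative to transcript length, binding proteins made up most of the system's RNA. Summed over the 6 Igfbp genes, the level in preadipocytes was 773 ± 64.2 FPKM with Acly and 736 ± 90.9 FPKM without. In adipocytes it was 425 ± 50.5 FPKM with Acly and 562 ± 18.0 FPKM without. The preadipocyte groups overlapped, and every adipocyte library lay below every preadipocyte library. Igfbp7 held 77.0% ± 1.58 of the sum in Aclyf/f and 64.9% ± 2.58 in Acly-/- preadipocytes. In Aclyf/f adipocytes Igfbp4 held the most, 49.6% ± 3.25, with Igfbp7 at 37.3% ± 1.86. In Acly-/- adipocytes Igfbp7 still held the most, 56.8% ± 2.69, and Igfbp4 held 18.0% ± 1.67. The makeup of the Acly-/- adipocytes thus lay between that of preadipocytes and that of Aclyf/f adipocytes for these 2 genes. Preadipocyte markers differed between the adipocyte groups as well. Their sum was 692 to 738 FPKM in Acly-/- adipocytes against 134 to 199 FPKM in adipocytes with Acly. In preadipocytes it was 641 to 744 FPKM with Acly and 834 to 1155 FPKM without. Ly6a made up most of the sum in Acly-/- adipocytes (649 ± 27.2 FPKM). Ly6a (5.08-fold), Pdgfrb (2.78-fold) and Pdgfra (1.96-fold) were each called higher there. Below the filter were Cd34, which was lower (0.398 against 1.08 FPKM), Thy1 (0.0629 against 0.0782 FPKM) and Dlk1 (0.104 against 0.0143 FPKM). The part of these markers in the result was not tested.

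**Figure D1:**
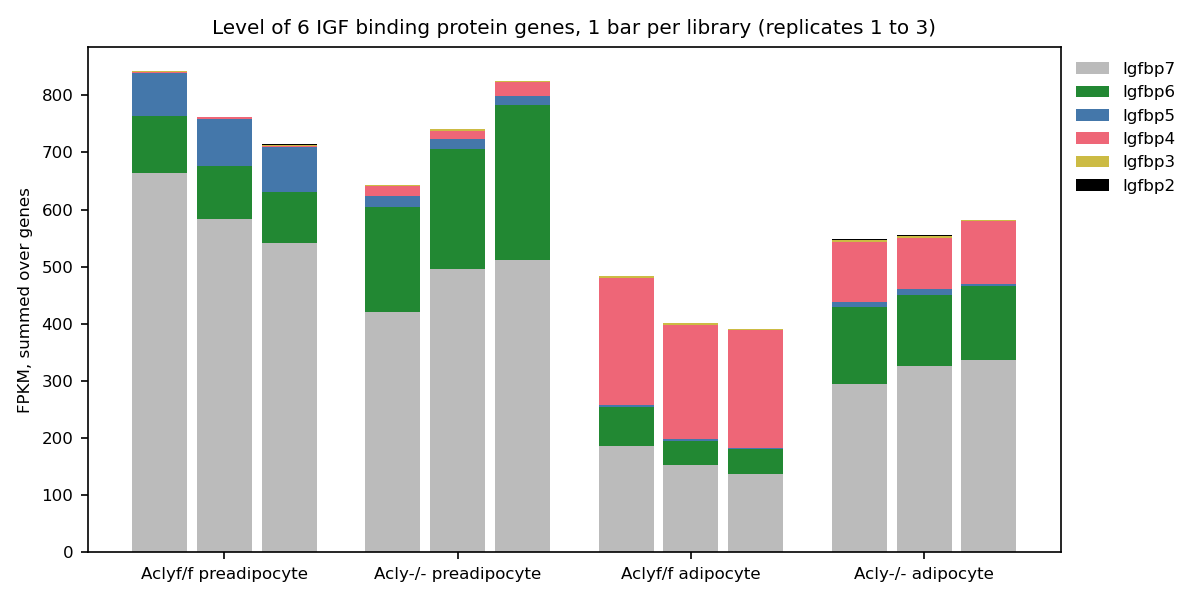
Stacked FPKM of the 6 Igfbp genes, 1 bar per library, in 4 groups of 3 libraries; the vertical axis is FPKM summed over genes. Igfbp4 fills 46.1% to 52.6% of the bar in adipocytes with Acly and 16.1% to 19.1% in those without.

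Igfbp4, Igfbp5, Igfbp6 and Igfbp7 were the members called between genotypes at both stages, with the day 0 call of Igfbp7 lost in some alternative fits. The 250 bases before a transcript start of each are shown for that reason, from RefSeq's promoter windows on GRCm38.p6 (the assembly of mm10, the build named in the submitters' processing notes). All 10 members had an entry. For Igfbp4 the start used lies inside the span that RefSeq gives the gene, which begins upstream at 99040005. They are 5′ to 3′ on the gene's own strand, and capitals mark matches, on either strand, to any of 7 motifs. These were the TATA box spelled TATAAA, the CCAAT box, the GC box spelled GGGCGG, the E-box spelled CACGTG, the direct repeat bound by PPAR with RXR (AGGTCA repeated with 1 base between), the element bound by ATF4 with C/EBP factors, spelled TGATGNAAT, and the AP-1 site spelled TGANTCA.
Igfbp4 (chr11:99040994-99041243, + strand): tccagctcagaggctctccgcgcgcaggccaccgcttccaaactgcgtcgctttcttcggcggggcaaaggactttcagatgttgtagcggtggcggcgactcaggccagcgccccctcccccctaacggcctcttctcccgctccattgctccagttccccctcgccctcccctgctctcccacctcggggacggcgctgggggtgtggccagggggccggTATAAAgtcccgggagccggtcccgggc
Igfbp5 (chr1:72874866-72875115, - strand): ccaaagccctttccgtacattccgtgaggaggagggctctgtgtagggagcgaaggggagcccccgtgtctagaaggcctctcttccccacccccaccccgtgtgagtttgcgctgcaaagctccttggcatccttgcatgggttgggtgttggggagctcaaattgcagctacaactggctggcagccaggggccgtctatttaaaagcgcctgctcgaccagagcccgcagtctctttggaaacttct
Igfbp6 (chr15:102143936-102144185, + strand): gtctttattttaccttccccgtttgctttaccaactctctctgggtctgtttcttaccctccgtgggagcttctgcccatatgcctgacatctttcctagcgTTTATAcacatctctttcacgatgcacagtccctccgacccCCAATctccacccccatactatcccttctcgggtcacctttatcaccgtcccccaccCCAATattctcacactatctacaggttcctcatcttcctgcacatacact
Igfbp7 (chr5:77408046-77408295, - strand): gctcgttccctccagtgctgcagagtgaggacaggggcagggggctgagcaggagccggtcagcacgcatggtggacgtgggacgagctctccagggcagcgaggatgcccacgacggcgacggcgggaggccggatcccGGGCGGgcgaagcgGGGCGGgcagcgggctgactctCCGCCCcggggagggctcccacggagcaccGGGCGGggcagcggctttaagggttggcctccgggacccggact
The Igfbp4 window held 1 TATA box, beginning 28 bases before the start, and no other match. The Igfbp6 window held 1 TATA box on the opposite strand, beginning 148 bases before the start, and 2 CCAAT boxes. The Igfbp7 window held 4 GC boxes. The Igfbp5 window held none of the 7 motifs. Over all 32851 RefSeq windows of the same length, 12.4% held the TATA box, 33.9% CCAAT, 32.7% the GC box, 6.02% the E-box, 0.03% the direct repeat, 0.82% the ATF4 motif and 6.75% the AP-1 motif. The windows differed in base makeup, with 74.0% G and C in Igfbp7, 69.2% in Igfbp4, 58.8% in Igfbp5 and 49.6% in Igfbp6, against a median of 52.4% over all windows. A match is a run of letters and not a shown binding site, and no match says only that these letters are not in this window.

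The ligands were scarce in all 4 groups. Gene coordinates are RefSeq's on GRCm38.p6. Igf1 (chromosome 10, 87858265 to 87937047), which liver secretes under growth hormone and many tissues make locally, was 0.687, 1.49 and 1.59 FPKM in Aclyf/f preadipocytes and 0.298, 0.399 and 0.250 FPKM in Acly-/- preadipocytes. It was 0.0525, 0.183 and 0.0983 FPKM in Aclyf/f adipocytes and 0.0777, 0.0762 and 0.0529 FPKM in Acly-/- adipocytes. Every Aclyf/f preadipocyte library lay above every Acly-/- one, every adipocyte library lay below every preadipocyte library, and the adipocyte groups overlapped. An exact 2-sided permutation test gave p = 0.1 for Acly loss in preadipocytes and for differentiation in each genotype, the smallest p that 3 against 3 libraries allow. With no filter on low values, limma gave adjusted p = 0.00174 for Acly loss at day 0 (log2 fold change -0.75, SE 0.13) and 0.835 in adipocytes. For differentiation, limma with no filter gave adjusted p = 8.23e-05 in Aclyf/f cells and 0.0956 in Acly-/- cells, and 0.0155 for their difference. The Igf1 levels rest on about 4 to 108 fragments per library.

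Igf2 (chromosome 7, 142650768 to 142666816), an imprinted gene expressed from the paternal copy, was 0.243, 0.442 and 0.346 FPKM in preadipocytes with Acly and 0.0758, 0.148 and 0.184 FPKM in those without. In adipocytes it was 0.203, 0.198 and 0.169 FPKM with Acly and 0.542, 0.639 and 0.613 FPKM without. Acly-/- libraries thus lay below Aclyf/f libraries at day 0 and above them at day 4, without overlap at either stage. The exact permutation p was 0.1 in each case. With no filter, limma gave adjusted p = 0.00663 at day 0 (log2 fold change -0.24, SE 0.05), 0.000125 in adipocytes (0.43, SE 0.05) and 8.67e-05 for the difference between stages. These levels rest on about 4 to 32 fragments per library, and the differences on the log2(FPKM + 1) scale understate changes this low, so no ratio of FPKM is given. H19, the non-coding neighbour that shares an imprinting control region with Igf2, lay on the lowest value in 11 of 12 libraries. Igf2os, which overlaps Igf2 on the other strand, lay there in all 12, and since the handling of strand is not stated, reads of overlapping genes may be split between them.

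**Figure D2:**
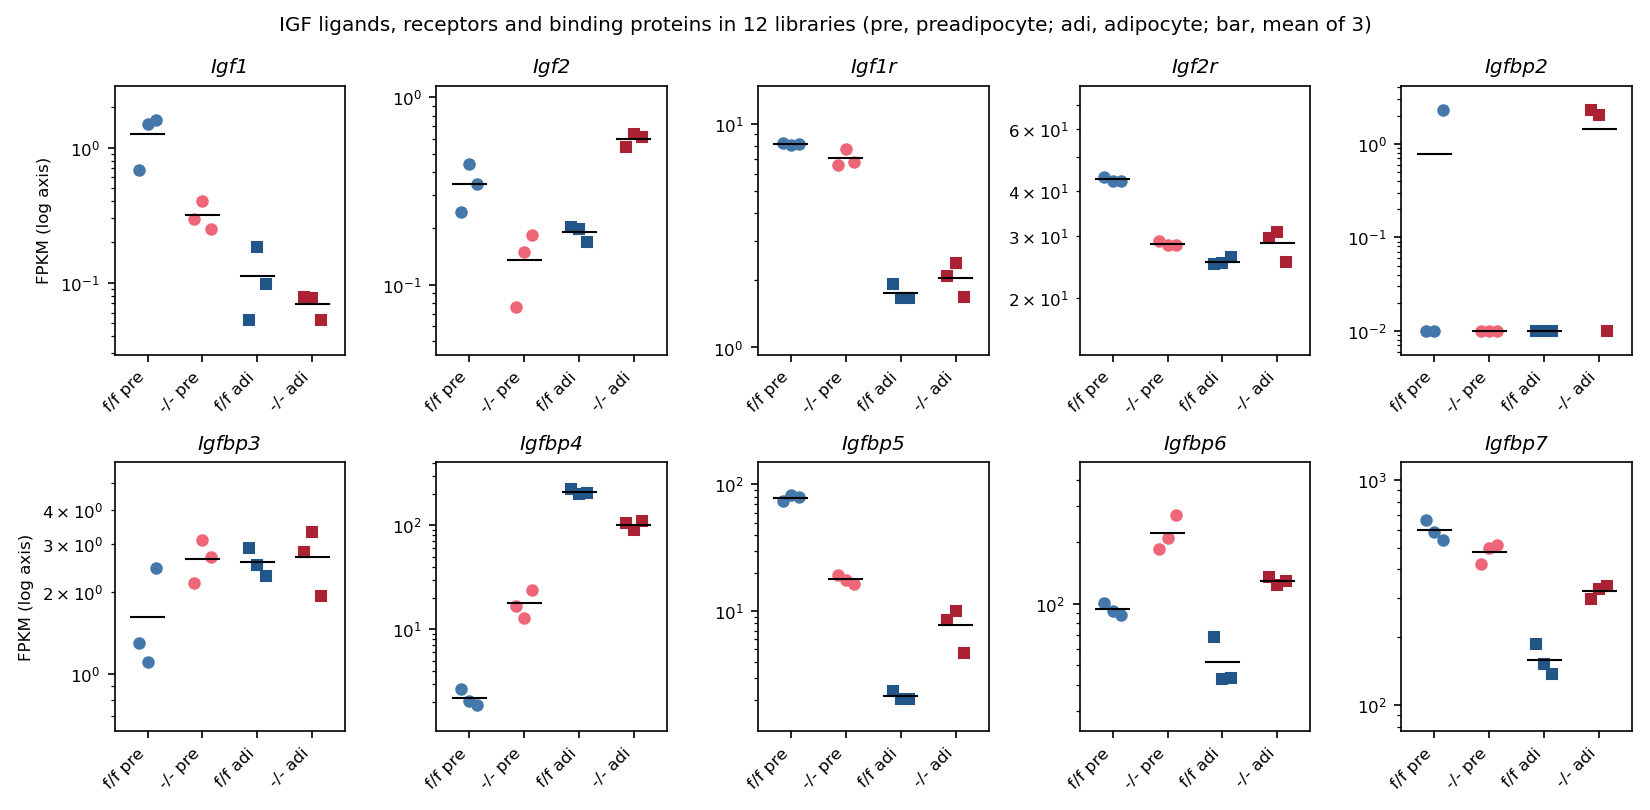
FPKM of the 10 members in each of 12 libraries, on log axes of different range, with 1 panel per gene, 1 point per library and a bar at the mean of 3. Igfbp4 and Igfbp5 order the 4 groups in opposite ways, and Igfbp2 lies either at 0.01 or above 2 FPKM.

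The receptors were both lower after differentiation in Aclyf/f cells, and only Igf2r was called between genotypes. Igf1r (chromosome 7, 67952257 to 68233668), the signalling receptor, was 8.23, 8.02 and 8.16 FPKM in preadipocytes with Acly and 6.56, 7.74 and 6.77 FPKM in those without. It was 1.92, 1.67 and 1.67 FPKM in Aclyf/f adipocytes and 2.09, 2.38 and 1.68 FPKM in Acly-/- adipocytes. The day 0 groups did not overlap, though the difference was not called in limma (log2 fold change -0.19, SE 0.10, adjusted p = 0.139), and the day 4 groups overlapped (0.14, SE 0.10, adjusted p = 0.243). With differentiation Igf1r fell 4.64-fold in Aclyf/f cells (adjusted p = 1.77e-09) and 3.43-fold in Acly-/- cells (adjusted p = 3.91e-08). The test of the difference between these falls gave adjusted p = 0.0625. It was called without Acly-/- adipocyte replicate 3 (0.0183) or Acly-/- preadipocyte replicate 2 (0.0377), after quantile normalization (0.0431) and with no variance trend (0.0496).

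Igf2r (chromosome 17, 12682406 to 12769706), the clearance receptor, was the most abundant of the ligand and receptor genes. It was 44.0, 42.9 and 42.9 FPKM in Aclyf/f preadipocytes and 28.9, 28.2 and 28.3 FPKM in Acly-/- preadipocytes. It was 25.0, 25.1 and 26.1 FPKM in Aclyf/f adipocytes and 29.7, 30.7 and 25.3 FPKM in Acly-/- adipocytes. Only the Aclyf/f preadipocytes stood apart, above the other 9 libraries, and the 3 other groups lay between 25.0 and 30.7 FPKM. Acly loss in preadipocytes went with a 1.52-fold lower level (log2 fold change -0.59, SE 0.07, adjusted p in limma = 2.82e-05). In adipocytes the difference was not called (0.16, SE 0.07, adjusted p = 0.0810), but it was after quantile normalization (0.0318) or without Acly-/- adipocyte replicate 3 (0.00770). Igf2r fell 1.70-fold in differentiating Aclyf/f cells (adjusted p = 5.78e-07), while no change was detected in Acly-/- cells (log2 fold change 0.00, SE 0.07, adjusted p = 0.993). The difference between these responses was called (0.75, SE 0.10, adjusted p = 5.92e-05). Airn, an imprinted RNA that runs antisense through Igf2r, is listed under the same locus and ranged from 2.14 to 9.07 FPKM. It was not called between genotypes, and its share of the reads given to Igf2r cannot be told apart without strand. Per library, Igf2r stood at 5.32 ± 0.0576 times the FPKM of Igf1r in Aclyf/f and 4.08 ± 0.393 times in Acly-/- preadipocytes. In adipocytes the ratio was 14.6 ± 1.38 with Acly and 14.1 ± 1.07 without.

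Igfbp4 and Igfbp5 took opposite courses, each with a large change in differentiation that was smaller without Acly. Igfbp4 (chromosome 11, 99040005 to 99052655), a binding protein known for inhibiting IGF action until it is cleaved, was 2.70, 2.02 and 1.89 FPKM in Aclyf/f preadipocytes and 16.9, 12.9 and 23.7 FPKM in Acly-/- preadipocytes. In adipocytes it was 223, 201 and 206 FPKM with Acly and 105, 89.5 and 109.8 FPKM without. No 2 of the 4 groups overlapped, rising from Aclyf/f to Acly-/- preadipocytes and on through Acly-/- to Aclyf/f adipocytes. Without Acly it was 8.11-fold higher at day 0 (log2 fold change 2.53, SE 0.16, adjusted p in limma = 7.01e-08) and 2.07-fold lower in adipocytes (-1.04, SE 0.16, adjusted p = 0.000124). Acly-/- preadipocyte replicate 3 was the highest of its group, and without it the day 0 difference was 2.31 (SE 0.13, adjusted p = 1.41e-07). Differentiation raised Igfbp4 95.2-fold in Aclyf/f cells (adjusted p = 8.62e-13) and 5.68-fold in Acly-/- cells (adjusted p = 2.11e-08), and the difference between these rises was called (log2 -3.57, SE 0.23, adjusted p = 7.36e-08).

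Igfbp5 (chromosome 1, 72858065 to 72874865), a binding protein that also attaches to extracellular matrix, was 74.2, 82.6 and 78.9 FPKM in preadipocytes with Acly and 19.4, 17.8 and 16.3 FPKM in those without. In adipocytes it was 2.36, 2.04 and 2.04 FPKM with Acly and 8.56, 10.1 and 4.67 FPKM without. The 4 groups did not overlap here either, and their order was the reverse of that of Igfbp4. Without Acly, Igfbp5 was 4.41-fold lower at day 0 (log2 fold change -2.08, SE 0.18, adjusted p in limma = 9.8e-07) and 3.62-fold higher in adipocytes (1.42, SE 0.18, adjusted p = 1.8e-05). It fell 36.6-fold in differentiating Aclyf/f cells (adjusted p = 3.11e-11) and 2.29-fold in Acly-/- cells (adjusted p = 8.04e-05). The difference between these falls was called (log2 3.51, SE 0.25, adjusted p = 1.79e-07). Acly-/- adipocyte replicate 3 was the lowest of its group for Igfbp5, and it was so for Igf1r, Igf2r, Igfbp2 and Igfbp3 as well.

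Per library, Igfbp4 stood at 0.0282 ± 0.00701 times the FPKM of Igfbp5 in Aclyf/f preadipocytes and 1.02 ± 0.383 times in Acly-/- preadipocytes. The ratio was 14.9 ± 7.64 in Acly-/- adipocytes and 97.8 ± 3.21 in Aclyf/f adipocytes. Preadipocytes without Acly thus held the pair at nearly equal levels before differentiation, where Aclyf/f cells held mostly Igfbp5. Of 7 markers of smooth muscle and pericytes, 3 reached a mean of 1 FPKM in each group, namely Acta2, Cnn1 and Notch3 in preadipocytes and Acta2, Myh11 and Des in adipocytes. Acta2 made up most of their sum and, like Cnn1, ordered the groups as Igfbp5 did. The sum over the 7 was 413 to 429 FPKM in Aclyf/f preadipocytes, 126 to 140.3 FPKM in Acly-/- preadipocytes, 47.1 to 55.1 FPKM in Acly-/- adipocytes and 22.5 to 34.6 FPKM in Aclyf/f adipocytes. Myh11, a defining gene of smooth muscle, went another way, at 0.116 ± 0.0647 and 0.134 ± 0.0834 FPKM in preadipocytes with and without Acly, and 6.96 ± 0.616 and 3.14 ± 0.355 FPKM in adipocytes. Des was also higher in adipocytes of both genotypes. None of the 7 lay on the lowest value in a whole group, Rgs5 and Cspg4 stayed under 0.5 FPKM in every group mean, and their part in the result was not tested.

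**Figure D3:**
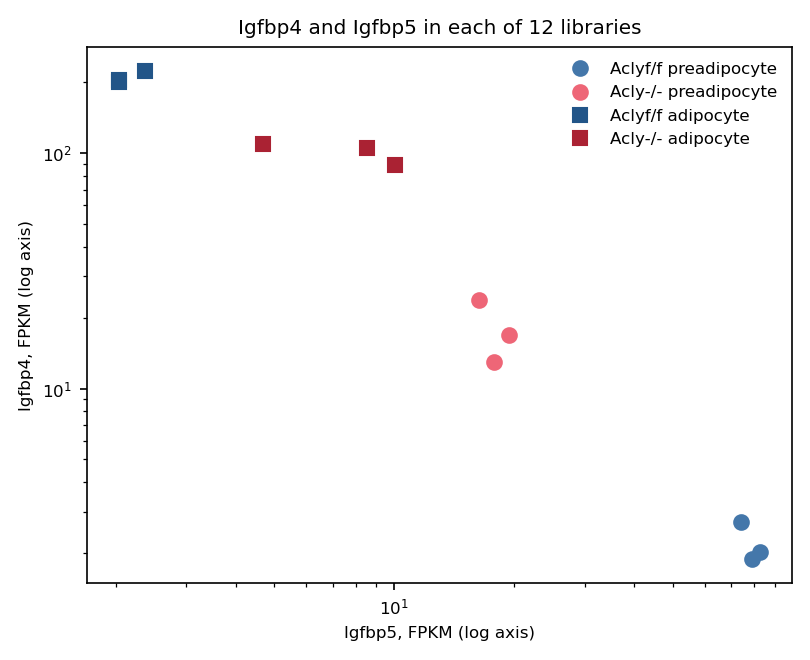
Igfbp4 against Igfbp5 in each of 12 libraries, in FPKM on log axes, coloured by group, with circles for preadipocytes and squares for adipocytes. Acly-/- preadipocytes (Igfbp4 12.9 to 23.7 FPKM) and Acly-/- adipocytes (89.5 to 109.8 FPKM) lie between the Aclyf/f preadipocytes at lower right and the Aclyf/f adipocytes at upper left.

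Igfbp6 was higher without Acly at both stages. Igfbp6 (chromosome 15, 102144186 to 102149512), known for its preference for IGF2 over IGF1, was 101, 92.5 and 88.2 FPKM in preadipocytes with Acly and 184, 209.8 and 271 FPKM in those without. In adipocytes it was 68.4, 42.9 and 43.6 FPKM with Acly and 135, 123 and 129 FPKM without. Acly-/- libraries lay above all Aclyf/f libraries of either stage. The difference was 2.36-fold at day 0 (log2 fold change 1.21, SE 0.16, adjusted p in limma = 5.24e-05) and 2.50-fold in adipocytes (1.34, SE 0.16, adjusted p = 1.26e-05). Here too Acly-/- preadipocyte replicate 3 was the highest of its group, and without it the day 0 difference was 1.06 (SE 0.16, adjusted p = 0.000268). Igfbp6 fell with differentiation in both genotypes, 1.82-fold with Acly (adjusted p = 0.000246) and 1.71-fold without (adjusted p = 0.00116). No difference between these falls was detected (log2 0.13, SE 0.23, adjusted p = 0.672).

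Igfbp7 (chromosome 5, 77349240 to 77408045), a matrix-associated relative that binds IGFs weakly, was the most abundant member in each group except Aclyf/f adipocytes, where Igfbp4 was. It was 664, 584 and 542 FPKM in preadipocytes with Acly and 422, 497 and 512 FPKM in those without. It was 187, 153 and 138 FPKM in adipocytes with Acly and 295, 327 and 336 FPKM in those without. No 2 groups overlapped, falling from Aclyf/f to Acly-/- preadipocytes and on through Acly-/- to Aclyf/f adipocytes, which is the order of Igfbp5. In adipocytes Igfbp7 was 2.01-fold higher without Acly (log2 fold change 1.01, SE 0.12, adjusted p in limma = 7.75e-06). In preadipocytes it was 1.25-fold lower (-0.32, SE 0.12, adjusted p = 0.0390), a call that ended without Aclyf/f preadipocyte replicate 1 (0.145) or 2 (0.0731), without Acly-/- preadipocyte replicate 1 (0.146) or 2 (0.0544), with no filter (0.0743) and with the replicate number as a block (0.0627). Igfbp7 fell 3.75-fold in differentiating Aclyf/f cells (adjusted p = 3.7e-09) and 1.49-fold in Acly-/- cells (adjusted p = 0.000727), and the difference between these falls was called (1.33, SE 0.16, adjusted p = 2.14e-05). In the table its locus is merged with that of the neighbouring gene Polr2b.

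The scarce binding proteins gave less firm results. Igfbp3 (chromosome 11, 7206086 to 7215498), the main carrier of IGFs in blood, was 1.30, 1.11 and 2.44 FPKM in preadipocytes with Acly and 2.16, 3.11 and 2.69 FPKM in those without, and between 1.94 and 3.31 FPKM in adipocytes of both genotypes. Groups overlapped in every comparison. In preadipocytes Igfbp3 was called 1.64-fold higher without Acly (log2 fold change 0.51, SE 0.18, adjusted p in limma = 0.0392). That call ended without Aclyf/f preadipocyte replicate 1 (0.118) or 2 (0.159), without Acly-/- preadipocyte replicate 2 (0.131) or 3 (0.0882), with no filter (0.0816), after rescaling to the same FPKM sum (0.0776), with the replicate number as a block (0.0620) and with only the preadipocytes in the fit (0.0744). In Aclyf/f cells it was called 1.59-fold higher after differentiation (adjusted p = 0.0302), which ended without Aclyf/f preadipocyte replicate 1 (0.0975) or 2 (0.135), without Aclyf/f adipocyte replicate 1 (0.0920) or 2 (0.0575) and with no filter (0.0648). In adipocytes no difference between genotypes was detected (0.03, SE 0.18, adjusted p = 0.892). The test of the difference between stages was not called (-0.47, SE 0.26, adjusted p = 0.143), but it was without Aclyf/f preadipocyte replicate 3 (0.0207).

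Igfbp2 (chromosome 1, 72824480 to 72852474), a circulating binding protein that fat can secrete, lies 5593 bases from Igfbp5 by the table's loci. It was listed at 2.29 FPKM in Aclyf/f preadipocyte replicate 3 and at 2.30 and 2.02 FPKM in Acly-/- adipocyte replicates 1 and 2, and at the table's lowest value, 0.01, in the other 9 libraries. The listed levels correspond to about 29 fragments at most. Among protein-coding genes, 11 in the table were listed both at 0.01 and at 2 FPKM or more within a group, and a failed estimate cannot be told apart from an absent transcript. Igfbp2 was called for differentiation in Acly-/- cells (log2 fold change 1.10, SE 0.44, adjusted p in limma = 0.0455) and for the difference between differentiation responses (1.66, SE 0.63, adjusted p = 0.0408). The first call ended without Acly-/- preadipocyte replicate 1 (0.0841), 2 (0.0901) or 3 (0.0873), without Aclyf/f adipocyte replicate 1 (0.0501), 2 (0.0532) or 3 (0.0529), with no filter (0.101) and with the replicate number as a block over all 12 libraries (0.0691). With the block and only Acly-/- cells, a fit chosen after seeing the data, it was called (0.0101). The labels do not say that equal numbers pair the samples. The second ended without Acly-/- preadipocyte replicate 1 (0.0611), 2 (0.0672) or 3 (0.0673), without Aclyf/f adipocyte replicate 1 (0.0613), 2 (0.0631) or 3 (0.0625), with no filter (0.0951) and with the block (0.0641). Without Aclyf/f preadipocyte replicate 3 or Acly-/- adipocyte replicate 1 or 2 the gene no longer passed the filter. Between genotypes in adipocytes it was not called (adjusted p = 0.0502), though it was without Acly-/- adipocyte replicate 3 (log2 fold change 1.64, 0.00375), without Aclyf/f preadipocyte replicate 1 (0.0456) or 2 (0.0462), after quantile normalization (0.0465) and with only adipocytes in the fit (0.0383).

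**Figure D4:**
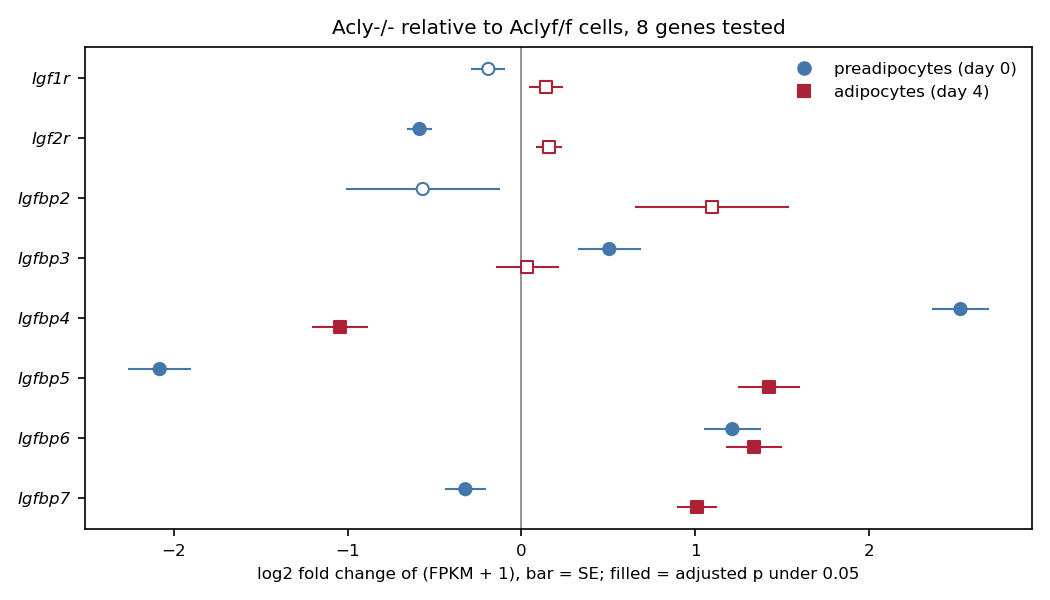
Log2 fold change of (FPKM + 1) in Acly-/- against Aclyf/f cells for the 8 members tested, with SE, in preadipocytes (circles) and adipocytes (squares); filled points were called by limma. Igfbp4 and Igfbp5 change side between stages, Igfbp6 lies above 1 at both, and Igfbp7 moves from -0.32 to 1.01.

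Counted over the 8 members tested, Acly loss in preadipocytes was called in 6, with 3 higher (Igfbp3, Igfbp4, Igfbp6) and 3 lower (Igf2r, Igfbp5, Igfbp7). In that comparison limma called 42.2% of all genes tested, 19.7% higher and 22.4% lower. The median log2 fold change was -0.26 over the members and -0.01 over all genes. In adipocytes Acly loss was called in 4 of 8, with Igfbp5, Igfbp6 and Igfbp7 higher and Igfbp4 lower, against 54.8% of all genes, 25.6% higher and 29.2% lower. There the medians were 0.59 and -0.02. Differentiation was called in 7 of 8 in Aclyf/f cells, 2 higher and 5 lower, against 72.5% of all genes, 36.5% higher and 36.0% lower. In Acly-/- cells it was called in 6 of 8, 2 higher and 4 lower, against 61.4% of all genes, 30.4% higher and 31.0% lower. The difference between both differentiation responses was called in 5 of 8 (Igf2r, Igfbp2, Igfbp4, Igfbp5 and Igfbp7), against 50.2% of all genes, 4 of them higher (23.7% of all genes) and 1 lower (26.4%). The counts describe 8 genes, and no test set the members apart from other genes. The differentiation comparisons share libraries with the comparisons between genotypes.

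**Figure D5:**
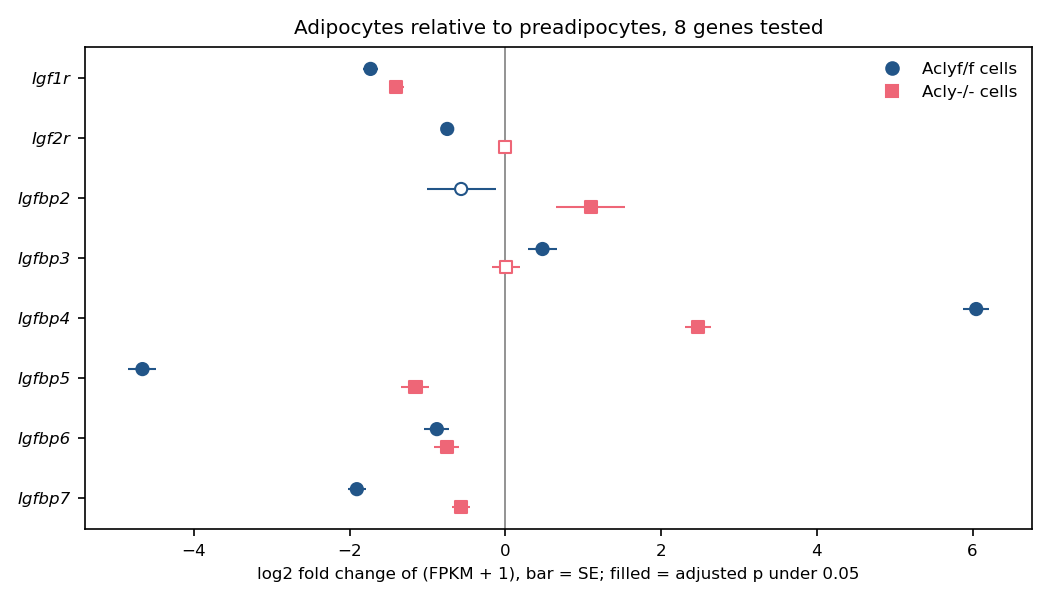
Log2 fold change of (FPKM + 1) in adipocytes against preadipocytes for the 8 members tested, with SE, in Aclyf/f (circles) and Acly-/- cells (squares); filled points were called by limma. Points of Acly-/- cells lie nearer to 0 for Igfbp4 (2.48 against 6.05), Igfbp5 (-1.15 against -4.66), Igfbp7 (-0.57 against -1.91) and Igf2r (0.00 against -0.75).

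Of 11 genes that set how much IGF is free 7 were tested, and 6 fell and 0 rose in Acly-/- preadipocytes, where 22.4% of all genes were lower, with a median log2 fold change of -0.67. Stc1, a stanniocalcin, a family that can inhibit the protease PAPP-A, fell 4.37-fold from 5.25 ± 1.14 to 1.20 ± 0.324 FPKM (limma adjusted p = 2.04e-06). Htra1, a secreted protease that can cleave binding proteins, fell 2.86-fold from 43.2 ± 0.935 to 15.1 ± 0.728 FPKM (adjusted p = 1.05e-08). In adipocytes 4 of the 7 were higher and 2 lower without Acly, with a median of 0.35, against 25.6% of all genes higher and 29.2% lower. Pappa, which encodes PAPP-A, the protease that cleaves IGFBP4, was 4.07-fold higher in Acly-/- adipocytes, at 4.74 ± 0.552 against 1.16 ± 0.0676 FPKM (adjusted p = 1.23e-07), where Igfbp4 itself was lower. In preadipocytes Pappa was 1.48-fold lower (adjusted p = 0.0108), where Igfbp4 was higher. With differentiation both rose in Acly-/- cells, Pappa 3.04-fold and Igfbp4 5.68-fold. In Aclyf/f cells Pappa fell 1.98-fold while Igfbp4 rose. A link between the RNA levels of both genes was not tested. Adam12, a metalloprotease that can cleave IGFBP3 and IGFBP5, was 1.85-fold higher in Acly-/- adipocytes, at 86.2 ± 9.04 against 46.6 ± 0.467 FPKM (adjusted p = 5.68e-06). Kazald1, a secreted protein with an IGFBP-like domain, fell 1.84-fold there (adjusted p = 0.000671), and Htra1 fell 1.30-fold (adjusted p = 0.00155). Igfbp1 and Igfbpl1 were at or near the lowest value throughout.

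Genes bearing on Igf2 RNA and on imprinting were counted in the same way. Of 9 genes 6 were tested, and in Acly-/- preadipocytes 4 fell and 0 rose, against 22.4% of all genes lower and 19.7% higher. Igf2bp2, whose protein binds Igf2 mRNA, fell 3.06-fold from a level of 36.7 ± 1.87 FPKM (limma adjusted p = 6.76e-09). Zfp57, a zinc finger gene that guards imprints, fell 2.19-fold (adjusted p = 0.000114). In Acly-/- adipocytes 3 were higher and 2 lower, against 25.6% and 29.2% of all genes. There Igf2bp2 was 2.00-fold lower at 11.7 ± 0.362 FPKM (adjusted p = 1.51e-07) and Igf2bp1 was called lower (log2 fold change -0.34), while Zfp57 was 3.76-fold higher at 1.21 ± 0.227 FPKM (adjusted p = 0.000515) and Igf2bp3 1.35-fold higher (adjusted p = 0.000974). Among 15 further imprinted genes known to be co-expressed with Igf2, 6 were tested. Without Acly 5 fell and 0 rose in preadipocytes (median log2 fold change -0.63), and 4 rose and 0 fell in adipocytes (median 0.33). Over all genes 22.4% were lower in the first comparison and 25.6% higher in the second. Ndn, which encodes necdin, a brake on adipogenesis, went from 23.6 ± 4.09 to 12.9 ± 1.58 FPKM in preadipocytes (1.83-fold lower, adjusted p = 0.000175) and was 2.48-fold higher in Acly-/- adipocytes, at 4.80 ± 0.614 FPKM (adjusted p = 2.17e-05). Peg10, a retrotransposon-derived imprinted gene, fell by 1.11 on the log2 scale in preadipocytes (adjusted p = 3.42e-05), and Grb10, an imprinted adaptor that dampens signalling from the insulin and IGF1 receptors, fell 1.59-fold in preadipocytes (adjusted p = 2.2e-05) and was 1.29-fold higher in adipocytes (adjusted p = 0.00164).

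A list of 16 genes held the related insulin receptor genes Insr and Insrr together with genes that act downstream of such receptors, and 14 were tested, Insr and Grb10 among them. In Acly-/- preadipocytes 10 fell and 0 rose, against 22.4% of all genes lower and 19.7% higher. In Acly-/- adipocytes 8 were lower and 2 higher, against 29.2% and 25.6% of all genes. Besides Grb10, the adaptor gene Grb14 was 1.63 ± 0.492 FPKM with Acly and 0.666 ± 0.197 FPKM without Acly in preadipocytes (limma adjusted p = 0.00212). In adipocytes the insulin receptor substrate gene Irs3 fell 5.25-fold to 0.565 ± 0.194 FPKM (adjusted p = 1.37e-06) and the kinase gene Akt2 1.90-fold to 42.7 ± 1.85 FPKM (adjusted p = 4.06e-07), while Akt1 was 1.39-fold higher (adjusted p = 0.000674). Of 7 genes of growth hormone signalling, the pathway that drives Igf1 in liver, 1 rose and 4 fell in Acly-/- preadipocytes, against 19.7% of all genes higher and 22.4% lower. Socs2, a feedback inhibitor, fell 1.69-fold (adjusted p = 2.4e-05), the related Cish fell 2.11-fold (adjusted p = 0.000298), and the kinase gene Jak2 was 1.20-fold higher (adjusted p = 0.0465). In adipocytes 3 were higher and 2 lower, against 25.6% and 29.2% of all genes. The growth hormone receptor gene Ghr was 1.99-fold higher at 102 ± 2.50 FPKM (adjusted p = 2.96e-06) and Cish 2.94-fold higher (adjusted p = 0.00202), while the transcription factor genes Stat5a and Stat5b were 2.73-fold and 2.69-fold lower (adjusted p at most 7.43e-08). Of 5 genes that work with Igf2r in sorting lysosomal enzymes, 2 fell and 0 rose in Acly-/- preadipocytes, where 22.4% of all genes were lower. These were Gnptab, 1.46-fold lower (adjusted p = 0.000155), which makes the mannose 6-phosphate tag, and M6pr, the smaller mannose 6-phosphate receptor, 1.19-fold lower (adjusted p = 0.00995). In adipocytes, where 25.6% of all genes were higher, 2 were higher, Gnptg by 0.64 on the log2 scale (adjusted p = 0.000402) and M6pr 1.12-fold (adjusted p = 0.0491).

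Genes whose pattern was most like that of a member were sought among genes with a mean of at least 5 FPKM, by Pearson's r of log2 values over the 12 libraries. The libraries fall into 4 groups and share them, and r is given as a description. Igfbp4 was most like Lonp1 (0.996), Srebf1 (0.995) and Hspa9 (0.994). Igfbp5 was most like Clip3 (0.993), Myo1e (0.990) and Nkain1 (0.989). Igfbp6 was most like Apol9b (0.995), Apol9a (0.991) and Smyd2 (0.985), the first pair being near-identical copies whose reads may have been split. Igfbp7 was most like Inhbb (0.995), Gas1 (0.994) and Cd276 (0.992). Igf1r was most like Enpp3 (0.996), Gpsm1 (0.996) and Thbs1 (0.994), and Igf2r like Adgra3 (0.972), Eogt (0.972) and Bach1 (0.971). For Igfbp2 and Igfbp3 the highest r was 0.876 (Rpph1) and 0.811 (Unk).

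Levels of markers of other cell types differed between some groups. Macrophage and leukocyte markers summed to 30.6 to 36.3 FPKM in Acly-/- adipocytes and 2.50 to 3.52 FPKM in adipocytes with Acly, and to 4.67 to 7.62 FPKM (Aclyf/f) and 4.98 to 7.63 FPKM (Acly-/-) in preadipocytes. The higher sum was that of 1 gene, Cd68, which was 32.6 ± 3.12 FPKM in Acly-/- adipocytes, 21.75-fold higher than in adipocytes with Acly, while Cd14 was 1.36 ± 0.243 and 1.46 ± 0.313 FPKM (adjusted p = 0.739). In each group 2 of 8 reached a mean of 1 FPKM, and Ptprc and Itgam, which define leukocytes, lay on the lowest value in all 12 libraries. Bone and cartilage markers summed to 27.3 to 29.1 FPKM in Acly-/- and 16.5 to 17.1 FPKM in Aclyf/f preadipocytes. In adipocytes the sum was 14.5 to 16.2 FPKM without Acly and 7.69 to 8.80 FPKM with Acly. Runx2 made up most of it in preadipocytes (17.8 FPKM without and 13.4 FPKM with Acly), followed by Sox9 (7.94 and 2.38 FPKM) and Sp7 (2.24 and 0.577 FPKM). Bglap, Ibsp and Col2a1 were at most 0.206 FPKM in any group mean, and Acan lay on the lowest value. The part of these markers in the results was not tested. Sums of endothelial, mesothelial and epithelial, and skeletal muscle markers were at most 6.41 FPKM in any library.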

How the data were processed

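The table deposited by the authors holds FPKM for 24341 genes in 12 libraries, 1 column each, per the file headers. Its lowest value, 0.01, is a floor. Tools listed, without role or order, in the submitters' processing notes are Cufflinks 2.2.1, Bowtie2 2.2.6 and bcl2fastq, and the build is mm10. Filter, annotation and strand handling were not given in the sources used here. Groups came from the sample titles, and columns were matched by sample description.

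Values were transformed as log2(FPKM + 1), which makes changes at low levels look smaller. The model had 4 group means and was run in limma 3.58.1 (R 4.3.3) with a variance trend, checked on simulated data. Folds are ratios of mean FPKM. No batch is named in the labels. Depth was estimated from the commonest ratio between libraries of values under 0.3 FPKM, and from single-transcript genes of 3000 bases or more in GENCODE. Fragment numbers use the longest transcript and cover counting error only.

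Replicate numbers were checked as pairs by correlating deviations from group means. Every pair was above 0.1 only between preadipocytes and adipocytes of Acly-/- cells (0.123 to 0.147). That comparison was therefore also fitted with a block.

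All 10 members are named. From each pathway list the called genes with the largest changes in each genotype comparison are named, up to 2 higher and 2 lower, and for each member the 3 most alike genes, shown to 1 for Igfbp2 and Igfbp3. Members and lists were chosen with earlier results of these data known. Summaries used pandas 2.3.3, numpy 2.4.6 and Python 3.11.15, and plots used matplotlib 3.10.9. Alternatives were the pseudocount, the filter, 3 scalings, the variance trend, the groups fitted, the block and leaving out each library.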

Additional observations from a re-analysis of the deposited data

Results flagged for a closer look

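For 5 of 8 members, against 50.2% of all genes tested, the response to differentiation differed between genotypes by limma's test of that difference. On the log2(FPKM + 1) scale, as Acly-/- minus Aclyf/f response, it was -3.57 for Igfbp4, 3.51 for Igfbp5, 1.33 for Igfbp7, 0.75 for Igf2r and 1.66 for Igfbp2. The same value is the difference between the effects of Acly loss in adipocytes and in preadipocytes. Adjusted p was at most 5.92e-05 for the first 4 and 0.0408 for Igfbp2, whose value rests on 3 libraries listed above the lowest value. Single values were not tested for lying apart from their group, since each group holds 3 libraries.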

How the results depend on the processing

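Of 855 refits of 40 member results, 808 kept their side of the threshold, 35 lost a call and 12 gained one. No called fold change of a tested member changed sign in these refits. Values not called changed sign in 10 refits, all of Igf2r or Igfbp3. Of the calls lost or gained, 35 were of Igfbp2 or Igfbp3. Refits in which a member was no longer tested are not in these counts, also where it had been called. With the stricter filter neither Igfbp2 nor Igfbp3 was tested. Igfbp2 was not tested either when any 1 of the 3 libraries listing it above the lowest value was left out. The calls of Igfbp4, Igfbp5 and Igfbp6 held in every alternative run. Counts of all genes called stayed within 1.5 times. Rescaling to the same FPKM sum moved the share of rises among calls from 46.8% to 34.7% for Acly loss in preadipocytes and from 46.7% to 36.4% in adipocytes. Leaving out 1 library gave 4 to 6 members and 4002 to 5098 genes called for Acly loss in preadipocytes. In adipocytes it gave 4 to 6 members and 5614 to 6706 genes.

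With the replicate number as a block in the fit over 4 groups, 4573 genes and 4 members were called for Acly loss in preadipocytes, 6125 and 4 in adipocytes, 8352 and 7 for differentiation in Aclyf/f cells, 6954 and 5 in Acly-/- cells, and 5516 and 4 for the difference. The calls lost were those of Igfbp3 and Igfbp7 in preadipocytes and of Igfbp2 (adjusted p = 0.0691 and 0.0641). With the block and only Acly-/- cells, a fit chosen after seeing the data, 7010 genes and 6 members were called, Igfbp2 included (0.0101). In no comparison do the labels say that samples with the same number share a culture or day. Depth limits Igf1, Igf2 and Igfbp3, and for Igfbp2 a failed estimate cannot be told apart from an absent transcript.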
